A study of Homo sapiens with 16 samples.

Results

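The genes described here are 8 genes for factors that grow blood vessels or set their tone: VEGFA, PGF, FLT1, ANGPTL4, PDGFB, ADM, EDN1 and NOS3. Peaks of HIF binding were taken for a gene when the centre of the peak lay within 100 kb of one of its protein-coding start sites. Of 23398 peaks in 16 lists, 120 met this rule, and merging overlapping peaks of all lists gave 44 sites near these genes out of 11664 sites in all. No peak was shared between these genes, and 7 of the 8 had at least 1 peak. FLT1 had none.

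The lists came from ChIP-seq, in which DNA bound by a protein is recovered with an antibody and sequenced, and a peak is a stretch of genome where the recovered DNA piles up. Chromatin was precipitated with rabbit polyclonal antibodies against HIF-1α (PM14) or HIF-2α (PM9) from 4 human cancer cell lines: A549 (lung), HCT116 (colorectal), PC3 (prostate) and T47D (breast). The hypoxic incubation lasted 16 hours at 0.5% oxygen in all of them, so that the lists used here compare isoforms and cell lines under hypoxia and include no cells in normal oxygen. There were 2 replicate libraries for every pairing of a cell line with an isoform, 8 such combinations in all, and the libraries are numbered as in the sample labels (2 and 3 for A549 and HCT116, 1 and 2 for PC3 and T47D). The labels do not say whether replicates were separate cultures, so that p-values measure the spread between libraries, which may be technical.

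HIF is a pair of proteins, an oxygen-regulated α subunit and a stable β subunit, that binds DNA at RCGTG (R standing for A or G). In hypoxia the α subunits escape degradation and switch on genes that raise oxygen supply, and new vessels and wider vessels are among the best known outcomes. VEGFA and PGF are secreted ligands of the vascular endothelial growth factor (VEGF) family, and FLT1 is a receptor for both. PDGFB is a growth factor that draws pericytes to new vessels, and ANGPTL4 is a secreted inhibitor of lipoprotein lipase that also acts on vessels. ADM, or adrenomedullin, is a peptide that relaxes vessels, EDN1, or endothelin 1, is a peptide that constricts them, and NOS3 makes the vasodilator nitric oxide in endothelium.

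The sequences that carry the results are shown first. Each is the central 200 bp of a site on the plus strand of GRCh37, or, where that window holds untranslated exon, 29 bases around its copy of RCGTG nearest to the 5′ end of the strand shown. Capitals mark RCGTG read on either strand (RCGTG itself, or its reverse complement CACGY). A site is named by its distance from the representative start of the gene, with a plus sign for downstream. The line named ANGPTL4 start is the copy of RCGTG closest to a second group of peaks at the start of that gene.
ADM +3.0 kb (chr11:10329479-10329678): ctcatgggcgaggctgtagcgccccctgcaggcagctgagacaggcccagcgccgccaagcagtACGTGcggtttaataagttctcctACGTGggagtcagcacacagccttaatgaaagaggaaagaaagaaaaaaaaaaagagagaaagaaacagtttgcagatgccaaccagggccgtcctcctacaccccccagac
ANGPTL4 -1.9 kb (chr19:8427009-8427208): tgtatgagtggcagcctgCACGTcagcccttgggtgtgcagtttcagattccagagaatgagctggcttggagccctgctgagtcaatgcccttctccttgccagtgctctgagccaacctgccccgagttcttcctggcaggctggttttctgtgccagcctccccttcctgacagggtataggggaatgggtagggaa
ANGPTL4 start (chr19:8428793-8428821): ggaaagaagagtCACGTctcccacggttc
VEGFA +1.3 kb (chr6:43739176-43739375): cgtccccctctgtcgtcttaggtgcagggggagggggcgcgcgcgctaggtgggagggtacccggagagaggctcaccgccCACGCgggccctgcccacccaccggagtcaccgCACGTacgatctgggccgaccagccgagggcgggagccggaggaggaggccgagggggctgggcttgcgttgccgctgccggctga
VEGFA +28.8 kb (chr6:43766622-43766821): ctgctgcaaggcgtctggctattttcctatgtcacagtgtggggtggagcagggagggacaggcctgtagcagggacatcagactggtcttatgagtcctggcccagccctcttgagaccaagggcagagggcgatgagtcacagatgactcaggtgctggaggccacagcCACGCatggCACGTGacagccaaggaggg
PDGFB +2.0 kb (chr22:39638952-39638980): caactcacggctACGTGaggctgggaggg
PDGFB -7.4 kb (chr22:39648254-39648453): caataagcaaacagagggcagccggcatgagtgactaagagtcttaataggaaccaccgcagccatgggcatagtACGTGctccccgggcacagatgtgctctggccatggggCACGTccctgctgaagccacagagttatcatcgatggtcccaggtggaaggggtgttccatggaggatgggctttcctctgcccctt
PDGFB +68.6 kb (chr22:39572302-39572501): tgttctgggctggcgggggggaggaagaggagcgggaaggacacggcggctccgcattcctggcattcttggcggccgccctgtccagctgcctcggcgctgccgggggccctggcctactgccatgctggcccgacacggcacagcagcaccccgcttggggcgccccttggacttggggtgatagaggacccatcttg
EDN1 +23.8 kb (chr6:12314336-12314535): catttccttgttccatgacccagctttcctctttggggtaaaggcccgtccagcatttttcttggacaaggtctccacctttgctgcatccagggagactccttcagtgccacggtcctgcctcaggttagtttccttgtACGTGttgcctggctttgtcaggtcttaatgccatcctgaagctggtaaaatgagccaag
PGF -95.8 kb (chr14:75518050-75518078): catcttttcgtcGCGTGcttcccccagag
NOS3 +89.9 kb (chr7:150777929-150777957): cggtcttcggagACGTGgctcccggcagg

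ADM +3.0 kb, the site found in most libraries, held 2 copies of ACGTG close together, both on the strand of the gene. VEGFA +1.3 kb and PDGFB -7.4 kb held 2 copies of RCGTG each, and VEGFA +28.8 kb held 3 matches, 2 of them the opposite strands of 1 CACGTG, beside 2 copies of TGANTCA, the motif of AP-1 factors. ANGPTL4 -1.9 kb and EDN1 +23.8 kb each held 1 copy. PDGFB +68.6 kb, the site with HIF-2α peaks in most libraries and no HIF-1α peak, held no RCGTG in these 200 bp, and the nearest of the 3 copies in the whole site lay 426 bp from its centre. Over the 44 sites, 28 (63.6%) held RCGTG in the central 200 bp, beside 52.2% of all 11664 sites. ACGTG was found in 20 sites (45.5%, beside 27.8% of all sites) and GCGTG in 14 (31.8%, beside 34.7%). TGANTCA was found in 5 sites (11.4%, beside 9.68% of all sites), and CANNTG, the E-box, which a CACGTG matches together with RCGTG, in 26 (59.1%, beside 57.7%). The median number of CpG dinucleotides in these windows was 8 for the sites near these genes and 11 over all sites. These shares are descriptions of letters in a window, and no test was made on them.

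Peak scores were given in the lists on a scale that is not stated, and the lowest score in each list was about 50. A peak is therefore described by its percentile, the share of the peaks in the same library with the same or a lower score, and by 0 where the library had no peak at the site. A percentile ranks a peak within its own list, and lists ranged from 275 peaks (PC3 HIF-2α replicate 1) to 4505 (HCT116 HIF-1α replicate 2). Read depth is not known from the lists, and a missing peak may lie below the threshold. Sites within 1000 bp of a start were called promoter sites, and the others distal.

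**Figure D1:**
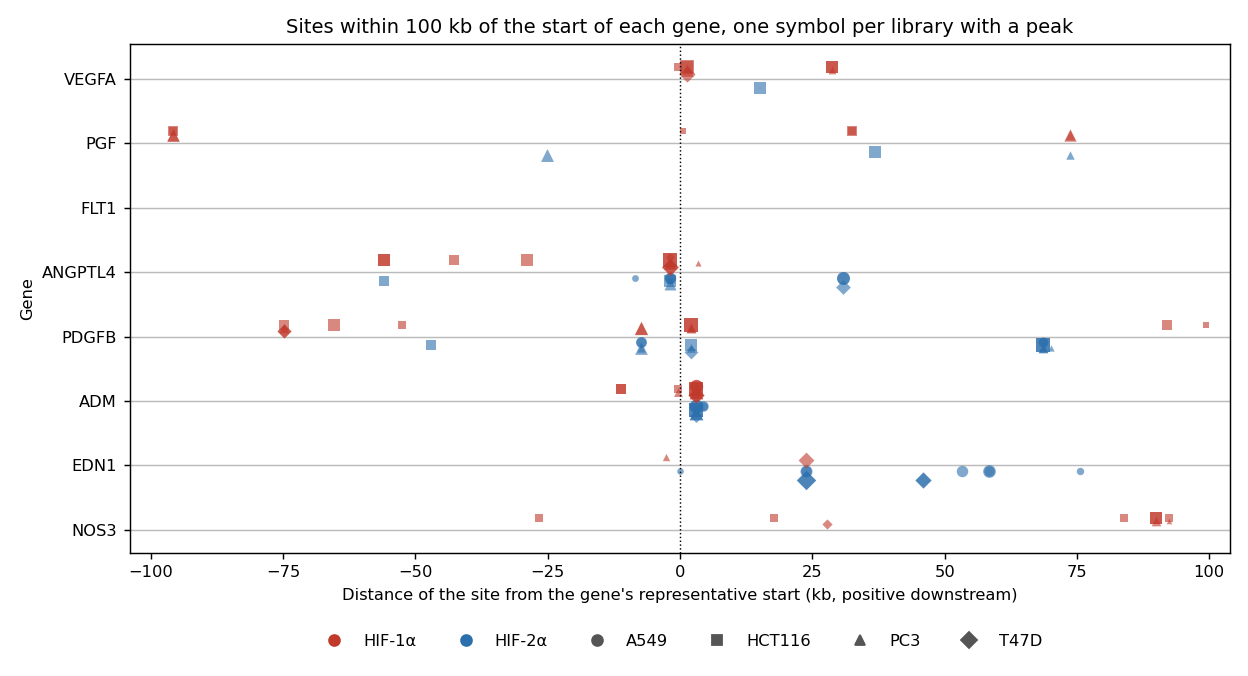
Sites near each gene by distance from its representative start in kb (positive downstream), with 1 symbol for each library that had a peak there. Colour gives the isoform, shape the cell line, and a larger symbol a higher score percentile. HIF-2α symbols of EDN1 lie almost all downstream of the gene, and FLT1 has no symbol.

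Of the 44 sites, 8 (18.2%) were promoter sites and 36 were distal, beside 15.0% promoter sites among all pairs of a protein-coding gene and a site within 100 kb. In 21 (47.7%) no other protein-coding gene had a nearer start, beside 25.4% of all such pairs. The other 23 had a nearer gene, and in 10 of these the centre was within 1000 bp of the start of that gene. Peaks were found in 1 library only at 23 sites (52.3%, beside 59.5% of all sites), and in both replicates of at least 1 combination of cell line and isoform at 19. At sites with no nearer gene the median percentile was 70.3 over 36 HIF-1α values and 64.9 over 34 HIF-2α values, beside 44.1 over 30 HIF-1α values and 50.7 over 15 HIF-2α values at sites with a nearer gene. ADM +3.0 kb alone, with high percentiles in most libraries, gave 8 of the 36 and 7 of the 34 values at sites with no nearer gene. The values share libraries, and the difference was not tested.

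In these lists the HIF-1α peaks near the 8 genes lay closer to the starts than the HIF-2α peaks, and so did those near protein-coding genes as a whole. No test was made on these counts. HIF-1α gave 70 of the 120 peaks, 20 of them (28.6%) within 1000 bp of a start, at a median distance of 7382 bp. HIF-2α gave 50 peaks, 5 of them (10.0%) within 1000 bp of a start, at a median distance of 17404 bp. Just beyond this limit, at 1064 to 1181 bp from a start of ANGPTL4, lay another 5 HIF-2α peaks and 4 HIF-1α peaks. Over all pairs of a protein-coding gene and a peak within 100 kb, 18.1% were within 1000 bp for HIF-1α (median distance 39624 bp) and 8.81% for HIF-2α (median distance 44669 bp). The peaks near the 8 genes were 0.427% of the 16383 HIF-1α peaks and 0.713% of the 7015 HIF-2α peaks in all lists. Counting a gene in a cell line when both replicates had the site, HIF-1α had a promoter site in 6 of 32 combinations of gene and cell line and a distal site in 11. HIF-2α had a promoter site in 1 of 32 and a distal site in 9. With the 275 best peaks of each list both isoforms had 0 promoter combinations, and the order of the distal ones turned (4 for HIF-1α and 7 for HIF-2α). The single HIF-2α promoter site, at ANGPTL4 in HCT116, rested on the second peak of 1 replicate, as described below.

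Each cell line contributed differently, and the background over all 19794 protein-coding genes differed as well. In HCT116, HIF-1α had promoter sites in both replicates at 3 of the 8 genes (VEGFA, ANGPTL4 and PDGFB), where 10.9% of all genes had one, and distal sites at 5 (VEGFA, ADM, ANGPTL4, PGF and NOS3), where 28.8% of all genes had one. In PC3, HIF-1α had promoter sites at 2 genes (ANGPTL4 and PDGFB; 3.96% of all genes) and distal sites at 3 (ADM, PGF and PDGFB; 14.9%). T47D HIF-1α had a promoter site at ANGPTL4 (1.81% of all genes) and distal sites at ADM and PDGFB (6.94%). A549 HIF-1α had no promoter site (0.763% of all genes) and a distal site at ADM (3.63%). With 8 genes, 1 gene is 12.5%, so that these counts are coarse.

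For HIF-2α the order of the cell lines was another one. A549 HIF-2α had distal sites at 4 of the 8 genes, ADM, ANGPTL4, PDGFB and EDN1, where 7.5% of all genes had one, and no promoter site (0.738% of all genes). Its peaks at ANGPTL4 -1.9 kb lay 1135 and 1143 bp from a start of that gene, just beyond the promoter limit. HCT116 HIF-2α had the promoter site of ANGPTL4 (0.758% of all genes) and distal sites at ADM and PDGFB (4.94%). PC3 HIF-2α had distal sites at ADM and PDGFB (2.03%) and no promoter site (0.177%). T47D HIF-2α had distal sites at EDN1 (2.15%) and no promoter site (0.212%). A549 was the one cell line in which more of these genes had sites with HIF-2α than with HIF-1α, and its HIF-2α lists were also the longer ones (1382 and 1056 peaks, against 382 and 629 for HIF-1α). In the other cell lines the HIF-1α lists were longer, and the part of list length in these counts was not tested.

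**Figure D2:**
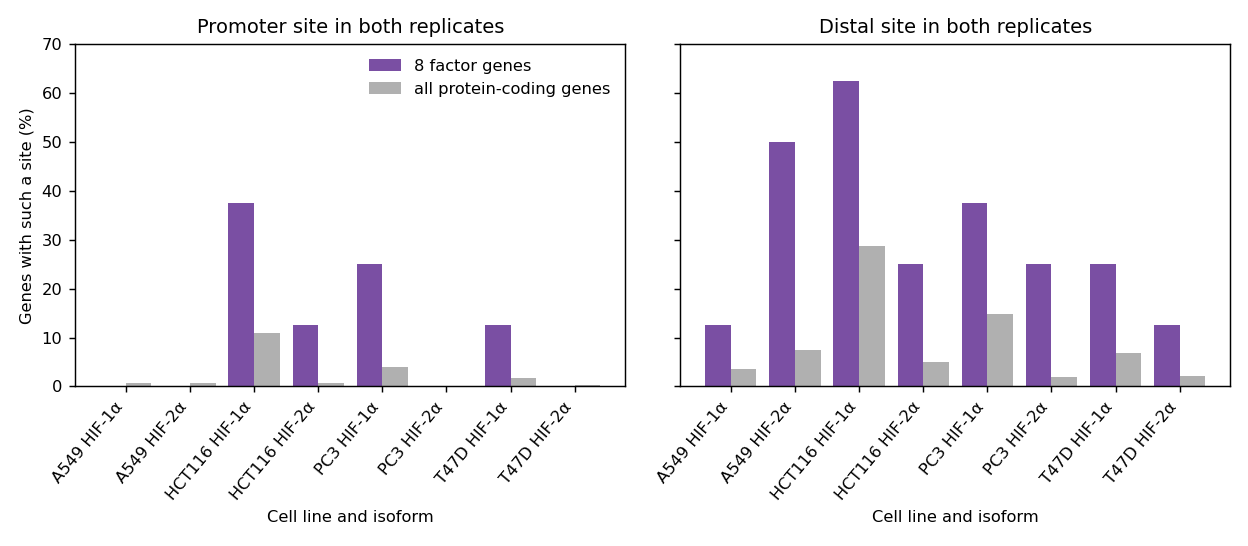
Share of genes with a promoter site (left) or a distal site (right) in both replicates, for the 8 factor genes and for all 19794 protein-coding genes, by cell line and isoform. For distal sites the bar of the factor genes is higher in each of the 8 combinations, from 12.5% (1 gene) to 62.5% (5 genes), and for promoter sites it is 0 in 4 of them.

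The isoforms were compared site by site by exact permutation (two-sided), with the labels HIF-1α and HIF-2α shuffled among the 4 libraries of a cell line, in all 1296 ways over the cell lines. It was run on the 1421 sites with peaks in at least 4 libraries, and the smallest p it could give was 0.00154. At an adjusted p (Benjamini-Hochberg over all 1421 sites) of 0.05 or less, 155 sites (10.9%) were called, 154 of them higher with HIF-1α. The median difference over all tested sites was 23.9 percentile points in favour of HIF-1α. A missing peak counted as 0, and the lists held 16383 HIF-1α peaks against 7015 HIF-2α peaks. With the 275 best peaks of each list, 352 sites could be tested and 125 were called. Most of these were higher with HIF-1α, but the share higher with HIF-2α was many times that among the 155 calls. ADM +3.0 kb was among those higher with HIF-2α. The nearly uniform direction of the 155 calls was thus not kept with lists of equal length. The part of list length in the direction of the calls was not tested. Near the 8 genes, 9 sites could be tested and 0 were called, and 1 (PDGFB +68.6 kb) had an unadjusted exact permutation p under 0.05. At sites with peaks in few cell lines or libraries the smallest possible p was larger. No p under 0.05 was possible at VEGFA +1.3 kb, PGF -95.8 kb, PDGFB -7.4 kb, PDGFB -74.7 kb and EDN1 +23.8 kb. The lack of calls at these sites therefore says nothing about a difference between the isoforms. Of the 9, 4 reached the minimum of 4 libraries with peaks of 1 isoform alone (VEGFA +1.3 kb, PGF -95.8 kb and PDGFB -74.7 kb with HIF-1α, PDGFB +68.6 kb with HIF-2α), and their differences are given as descriptions. With the 2 groups of peaks at ANGPTL4 kept apart under another merging rule, the one at the start passed the threshold. That result is given below as a description.

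**Figure D3:**
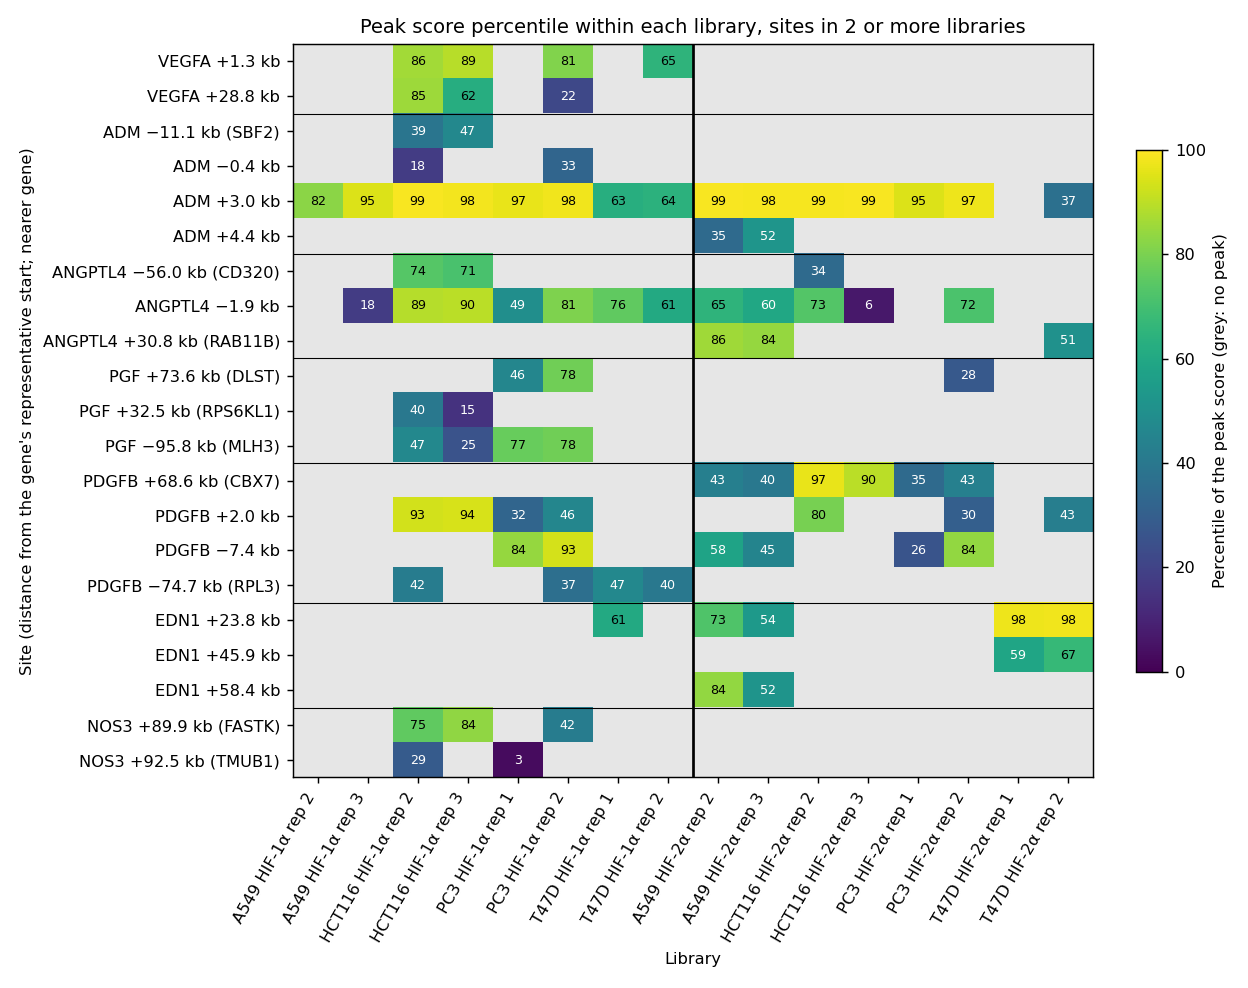
Percentile of the peak score in each of the 16 libraries (columns, HIF-1α left of the line and HIF-2α right of it) at the 21 sites found in 2 or more libraries (rows, with the nearer gene in brackets where there is one). Grey cells had no peak. ADM +3.0 kb is the one row filled in 15 columns.

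VEGFA, the main growth factor for new vessels, had HIF-1α sites in 3 cell lines and almost no HIF-2α peaks. The best site was VEGFA +1.3 kb, at chr6:43738271-43740420, in an intron of the gene and 292 bp from another VEGFA start. Its percentiles were 86.3 and 89.2 in the 2 HCT116 HIF-1α libraries, 81.0 in PC3 HIF-1α replicate 2 and 65.0 in T47D HIF-1α replicate 2. The other replicates of PC3 and T47D HIF-1α, both A549 HIF-1α libraries and all 8 HIF-2α libraries had no peak there. HIF-1α was thus present in both replicates in HCT116 alone, and in 1 of 2 in PC3 and T47D. The mean percentile was 40.2 for HIF-1α and 0 for HIF-2α, given as a description.

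A second VEGFA site lay in the intergenic stretch downstream of the gene. VEGFA +28.8 kb (chr6:43765321-43767385), with no nearer protein-coding gene, reached percentiles of 85.4 and 62.4 in HCT116 HIF-1α and 21.6 in PC3 HIF-1α replicate 2, and had no HIF-2α peak. A peak upstream of the representative start, VEGFA -0.4 kb, was found in HCT116 HIF-1α replicate 2 alone, at the 24.1 percentile. The single HIF-2α peak of the gene, VEGFA +15.2 kb in the 3′ untranslated exon, was in HCT116 HIF-2α replicate 3, at the 72.5 percentile. A549 had no VEGFA peak with either antibody.

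PGF, a VEGF relative that signals through FLT1, had peaks in 6 libraries, mostly at the starts of other genes. Its best site, PGF -95.8 kb (chr14:75517451-75518790), lay 66 bp from the start of the mismatch repair gene MLH3, with 5 genes nearer than PGF. The percentiles there were 46.7 and 25.5 in HCT116 HIF-1α and 76.9 and 78.5 in PC3 HIF-1α. No HIF-2α library and neither A549 nor T47D had a peak, and the mean percentile was 28.4 for HIF-1α and 0 for HIF-2α. PGF +73.6 kb, 7 bp from the start of DLST, a subunit of the 2-oxoglutarate dehydrogenase complex, had percentiles of 46.0 and 78.2 in PC3 HIF-1α and 28.1 in PC3 HIF-2α replicate 2. PGF +32.5 kb, 203 bp from a start of RPS6KL1, had percentiles of 39.9 and 14.5 in HCT116 HIF-1α. At a start of PGF itself there was 1 peak, in HCT116 HIF-1α replicate 3, at the 11.7 percentile. The other 2 sites of the gene were single HIF-2α peaks, at the 60.6 percentile in HCT116 replicate 3 and at the 86.4 percentile in PC3 replicate 2.

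FLT1, the receptor, had no peak of either isoform within 100 kb of its starts in any of the 16 libraries. The nearest peak was 356728 bp away, in A549 HIF-1α replicate 2, with a score of 54.25 (17.3 percentile). Over all protein-coding genes, 36.0% had a distal site and 12.5% a promoter site in both replicates of at least 1 combination. By that stricter measure 11338 of 19794 genes had neither, so that lacking a site was common. The share of all genes without a peak in any library is not given here.

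ANGPTL4 had the second most widespread site, found in 12 libraries and in both replicates of 5 combinations. The merged site ANGPTL4 -1.9 kb (chr19:8426383-8429955) was 3573 bp wide and held 17 peaks, because some libraries had 1 peak upstream of the gene and another at its start. The best percentile per library was 88.9 and 89.7 in HCT116 HIF-1α, 49.3 and 80.8 in PC3 HIF-1α, 75.7 and 60.9 in T47D HIF-1α, and 18.0 in A549 HIF-1α replicate 3 (no peak in replicate 2). With HIF-2α, A549 had 65.0 and 59.7, HCT116 had 73.1 and 6.44 and PC3 replicate 2 had 71.7, with no peak in PC3 replicate 1 or T47D. HIF-1α was above HIF-2α in every pairing of libraries in HCT116 and T47D and below it in A549, and the groups overlapped in PC3. Over the 4 cell lines the difference was 23.4 percentile points (57.9 for HIF-1α against 34.5 for HIF-2α), close to the median of all sites and short of the threshold (exact permutation p = 0.201, adjusted p = 0.268).

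The 2 positions within this ANGPTL4 site differed in their isoforms. Peaks centred 1930 to 2047 bp upstream of the representative start were found in 4 HIF-1α libraries (HCT116 and PC3) and in 5 HIF-2α libraries (A549, HCT116 and PC3 replicate 2). Peaks centred between 375 bp upstream and 151 bp downstream of it were found in 7 HIF-1α libraries, all but A549 replicate 2, and in 1 HIF-2α library, HCT116 replicate 2. The percentile at the start was 74.4 and 75.5 in HCT116 HIF-1α, 11.1 and 74.5 in PC3 HIF-1α, 75.7 and 60.9 in T47D HIF-1α, 18.0 in A549 HIF-1α replicate 3 and 25.9 in HCT116 HIF-2α replicate 2. T47D HIF-1α had its peak at the start and none upstream, and A549 HIF-2α had its peak upstream and none at the start. With peaks joined only where they overlapped by 50% of both, these positions formed separate sites among 1354 tested. The site at the start was then higher with HIF-1α by 45.5 percentile points (48.8 against 3.23, exact permutation p = 0.00463, adjusted p = 0.0402). It too had reached the minimum of 4 libraries through HIF-1α, and the 2 positions were named after their values were seen. These values therefore describe the site and support nothing further. The upstream site differed by 4.09 percentile points (38.6 against 34.5, exact permutation p = 0.731, adjusted p = 0.771). The difference between the 2 positions was not itself tested.

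Other ANGPTL4 sites were in single cell lines or nearly so. ANGPTL4 +30.8 kb (chr19:8459350-8460375), in an intron of RAB11B, had percentiles of 85.7 and 84.3 in A549 HIF-2α and 50.7 in T47D HIF-2α replicate 2, and no HIF-1α peak. ANGPTL4 -56.0 kb, 197 bp from a start of CD320, the receptor for transcobalamin-bound vitamin B12, had percentiles of 73.8 and 71.2 in HCT116 HIF-1α and 34.5 in HCT116 HIF-2α replicate 2. The remaining 4 sites had 1 peak each.

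PDGFB had the most sites, 10, and 4 of them were present in both replicates of some combination. PDGFB +2.0 kb (chr22:39637729-39640232) lay in an intron of the gene, 41 bp from another PDGFB start. Its HIF-1α percentiles were 93.1 and 94.0 in HCT116 and 32.5 and 46.0 in PC3, and its HIF-2α percentiles were 79.6 in HCT116 replicate 2, 30.5 in PC3 replicate 2 and 42.7 in T47D replicate 2. The HCT116 HIF-1α values were the highest, and no A549 library had a peak. The difference of 14.1 percentile points (33.2 for HIF-1α against 19.1 for HIF-2α) did not pass the threshold (exact permutation p = 0.306, adjusted p = 0.380).

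Upstream of PDGFB, PDGFB -7.4 kb (chr22:39647699-39649102) had no nearer gene and was found in A549 and PC3 alone. The percentiles were 58.1 and 45.2 in A549 HIF-2α, 84.1 and 93.4 in PC3 HIF-1α, and 25.8 and 83.6 in PC3 HIF-2α. A549 had HIF-2α peaks there and no HIF-1α peak, while in PC3 both HIF-1α values were above both HIF-2α values. The mean difference over the 4 cell lines was -4.40 percentile points (22.2 for HIF-1α against 26.6 for HIF-2α, exact permutation p = 1, adjusted p = 1).

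PDGFB +68.6 kb was a HIF-2α site. At chr22:39571679-39572994, between PDGFB and CBX7, whose start was nearer at 23717 bp, it had HIF-2α peaks in both replicates of 3 cell lines and no HIF-1α peak in any of 8 libraries. A549 had percentiles of 43.1 and 39.9, HCT116 of 96.5 and 89.8, and PC3 of 34.5 and 43.5, and T47D had no peak. The HCT116 values were the highest, and the 2 HIF-1α lists of that cell line, the longest of all, had no peak there. HIF-1α minus HIF-2α was -43.4 percentile points (0 against 43.4), in the opposite direction to the median of all sites. The unadjusted exact permutation p was 0.00926, the smallest possible for a site without peaks in T47D, and the adjusted p of 0.0553 did not pass the threshold. With 1 library left out at a time the unadjusted p stayed at 0.00926, and the adjusted p lay between 0.0425 and 0.0606, moving with the p-values of the other sites alone. As the site reached the minimum of 4 libraries through HIF-2α alone, these values describe it and support nothing further.

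PDGFB -74.7 kb lay 100 bp from the start of RPL3, a ribosomal protein gene. Its percentiles were 46.6 and 39.9 in T47D HIF-1α, 42.1 in HCT116 HIF-1α replicate 2 and 36.5 in PC3 HIF-1α replicate 2, and no HIF-2α library had a peak. The mean percentile was 20.7 for HIF-1α and 0 for HIF-2α. The other 6 PDGFB sites had 1 peak each.

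ADM had the site found in most libraries of any near these genes. ADM +3.0 kb, at chr11:10327764-10330546, began within the gene and was centred downstream of its end, and of all 11664 sites 0.360% were found in 15 or more libraries. With HIF-1α, A549 had percentiles of 82.5 and 94.8, HCT116 of 99.0 and 98.4, PC3 of 96.6 and 97.8, and T47D of 62.7 and 64.4. With HIF-2α, A549 had percentiles of 98.9 and 98.5, HCT116 of 98.7 and 99.0, PC3 of 94.9 and 97.4, and T47D replicate 2 of 37.03, with no peak in T47D replicate 1. Apart from T47D and A549 HIF-1α replicate 2, the percentile was above 90 in every library, and T47D was the lowest cell line with either isoform. The isoforms differed by 8.97 percentile points (87.0 for HIF-1α against 78.1 for HIF-2α), which did not pass the threshold (exact permutation p = 0.295, adjusted p = 0.367).

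At ADM +3.0 kb the median peak centre was 2961.5 bp downstream of the representative start for the 8 HIF-1α libraries (range 2489 to 3086 bp) and 2959 bp for the 7 HIF-2α libraries (range 2781 to 3091 bp). Peaks were merged into a site by overlap, and the positions were not tested against each other. No protein-coding start was nearer than that of ADM, at 2655 bp from the centre, but the start of a transcript of AMPD3 that is not annotated as protein-coding was 281 bp away. When only the 275 best peaks of each library were kept, so that all lists had the length of the shortest, the direction reversed and the site was called higher with HIF-2α (difference of -10.1 percentile points, exact permutation p = 0.0123, adjusted p = 0.0381).

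Around its own start ADM had few peaks. ADM -0.4 kb was found in HCT116 HIF-1α replicate 2 (17.8 percentile) and PC3 HIF-1α replicate 2 (32.8 percentile), in neither case in both replicates. ADM +4.4 kb, next to the main site, was found in A549 HIF-2α alone, at percentiles of 34.5 and 52.1. ADM -11.1 kb, 66 bp from a start of SBF2, was found in HCT116 HIF-1α alone, at percentiles of 38.8 and 46.9.

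EDN1 had HIF-2α peaks at 6 sites in A549 and T47D, HIF-1α peaks in 2 libraries, and no peak within 100 kb in any HCT116 library. EDN1 +23.8 kb (chr6:12313812-12315050) was intergenic, with no nearer gene. Its percentiles were 97.6 and 97.9 in T47D HIF-2α, 72.6 and 54.2 in A549 HIF-2α, and 60.8 in T47D HIF-1α replicate 1. In T47D both HIF-2α values were above the HIF-1α values, and in A549 no HIF-1α library had a peak. HIF-1α minus HIF-2α was -32.7 percentile points (7.61 against 40.3, exact permutation p = 0.0556, adjusted p = 0.107). That p was the smallest possible for a site without peaks in HCT116 and PC3, so that this site could not pass the threshold. Its 4 HIF-2α libraries alone met the minimum of 4 libraries. These values therefore describe the site and support nothing further.

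Farther downstream of EDN1 the HIF-2α sites were separate in the 2 cell lines. EDN1 +45.9 kb had percentiles of 58.6 and 67.0 in T47D HIF-2α and no other peak. EDN1 +58.4 kb had percentiles of 83.8 and 51.9 in A549 HIF-2α and no other peak. A549 HIF-2α replicate 2 had further single peaks at EDN1 +53.2 kb (64.9 percentile), EDN1 +75.5 kb (17.7 percentile) and the start itself, EDN1 -0.1 kb (10.6 percentile). The single PC3 peak was HIF-1α replicate 1 at EDN1 -2.6 kb, at the 16.8 percentile. All 7 sites of this gene had EDN1 as the nearest protein-coding gene.

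NOS3, endothelial nitric oxide synthase, had 9 peaks, all HIF-1α. Its best site, NOS3 +89.9 kb (chr7:150777100-150779393), lay 63 bp from a start of FASTK, with 9 genes nearer than NOS3. The percentiles there were 75.5 and 83.5 in HCT116 HIF-1α and 41.9 in PC3 HIF-1α replicate 2. Next to it, NOS3 +92.5 kb, 2 bp from a start of TMUB1, had percentiles of 28.8 in HCT116 HIF-1α replicate 2 and 3.10 in PC3 HIF-1α replicate 1. Within the gene, NOS3 +17.8 kb lay 84 bp from an internal start and was found in HCT116 HIF-1α replicate 2 alone, at the 18.1 percentile. The other 3 sites were single peaks with percentiles between 16.0 and 30.7, each with a nearer gene.

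**Figure D4:**
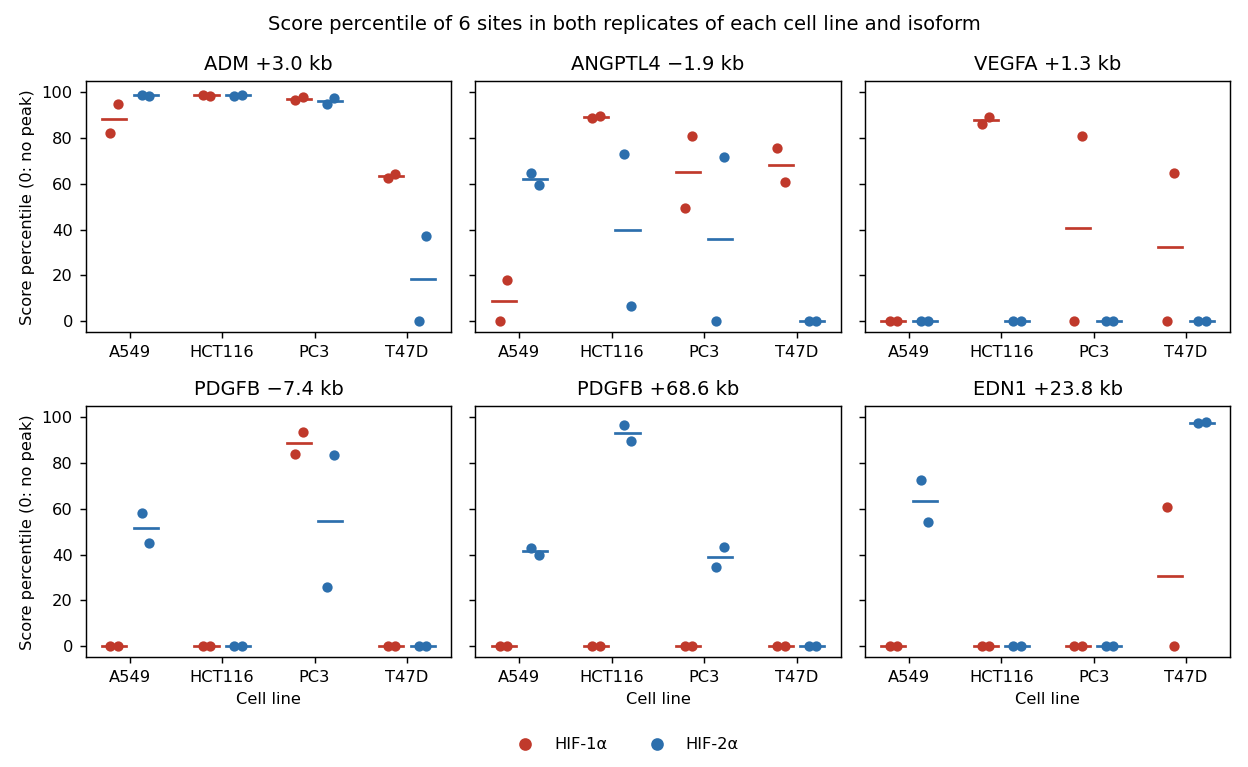
Score percentile of 6 sites in each cell line, with 1 dot per replicate library (0 where it had no peak) and a bar at the mean of the 2, HIF-1α in red and HIF-2α in blue. Both isoforms are above 80 at ADM +3.0 kb in A549, HCT116 and PC3, VEGFA +1.3 kb has HIF-1α dots alone above 0, and PDGFB +68.6 kb has HIF-2α dots alone above 0.

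For the genes with peaks in at least 8 libraries, the best percentile within 100 kb was compared with that of all other protein-coding genes over the 16 libraries. The genes most like ADM were CIB1, GDPGP1 and IDH2, neighbours that share their peaks, with a mean absolute difference of 9.505 percentile points (median over all genes, 77.9) and peaks in the same 15 libraries. Those most like ANGPTL4 were NRSN2 and SOX12, also neighbours (14.1), and ALPK2 (14.4), where the median over all genes was 48.0. Among those most like PDGFB were PTPN7 (13.9) and IER2 (15.1), where the median was 52.0.

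Set beside these 8 genes, 39 other genes of angiogenic and vasoactive signalling had sites about as often as all genes. A promoter site in both replicates of at least 1 combination was found at 5 of the 39 (12.8%), and a distal site at 15 (38.5%), beside 12.5% and 36.0% of all protein-coding genes. The 8 genes had 3 (37.5%) and 7 (87.5%). Among them, ADM and ANGPTL4 belong to the core genes that the study chose partly by HIF binding in cell lines that include these. Sites at these genes were thus known beforehand. Of the 39, 23 had neither. Those with a promoter site included VEGFB, a VEGF ligand, and FGFR1, a fibroblast growth factor receptor (both HCT116 HIF-1α), NRP1, a VEGF co-receptor (A549 HIF-2α), and APLN, the vasodilator peptide apelin (PC3 HIF-1α). Each of these had it in 1 of the 8 combinations.

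By list, the VEGF ligands and receptors had promoter sites at 2 of 7 genes and distal sites at 4. The vasoactive peptides, their receptors and processing enzymes had 1 and 5 of 11. The angiopoietins and their receptors had 0 and 1 of 4, and the PDGF ligands and receptors 0 and 1 of 5. VEGFD had a distal site with HIF-1α in all 4 cell lines, and EDN2, a second endothelin, had one in 5 of the 8 combinations. KDR, the main signalling receptor for VEGFA, had no peak within 100 kb, nor did TEK, ANGPT1, ANGPT2, PDGFD, EDN3, EDNRA, EDNRB, NOS1, NOS2 or CXCR4. These were all of the comparison genes without a peak. No share of all genes without a peak is given beside these, so that their lack of peaks cannot be called unusual.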

How the data were processed

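ChIP-seq peak lists of 16 libraries (A549, HCT116, PC3 and T47D cells, HIF-1α or HIF-2α, 2 replicates each) were used as deposited, and groups were taken from the sample labels. Per the study's methods and the submitters' processing notes, the authors trimmed reads (Trim Galore 0.3.3), aligned them to GRCh37 with BWA 0.7.5a-r405, removed duplicates with Picard 2.0.1 and called peaks with T-PIC and with MACS (version not given in the sources used here), later keeping peaks of both callers that passed a filter on read counts and overlapped between replicates. The deposited lists carry MACS peak names numbered without gaps, and replicates differ, so that they were read as MACS lists of single libraries before those filters. The deposited score of a peak is the peak caller's, on a scale that is not stated. Depth is unknown, so that counting intervals are not given, and the number of peaks per list sets the step of a percentile.

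Peaks on chromosomes 1 to 22, X and Y (all but 29) were merged where they overlapped by at least 1 bp. Start sites were those of protein-coding transcripts in GENCODE release 44 on GRCh37, and the representative start was that of the canonical transcript. A gene had a site in a combination of cell line and isoform when both replicates had a peak there, and it counted as a promoter site when any of these peaks was centred within 1000 bp of a start. Motifs were searched on both strands of GRCh37. Python 3.11.15 with numpy 2.4.6, pandas 2.3.3 and pysam 0.24.0 was used, and the functions were tested on simulated lists.

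The 8 genes, the 39 comparison genes and the tests were chosen with earlier results of these data known. Named were every site of the 8 genes in both replicates of at least 1 combination, its nearest gene, and, for genes with peaks in at least 8 libraries, the 3 genes most like it. The single peaks described and the 2 positions at ANGPTL4 were named after their values were seen. Results for some comparison genes are not reported here. Replicate numbers were not taken as pairs. Alternatives comprised a score threshold of 74.55, the 275 best peaks of each list, a reciprocal overlap of 50%, other filters, values, windows and start sites, and fits without 1 library or 1 cell line.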

Additional observations from a re-analysis of the deposited data

Results flagged for a closer look

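At 3 sites the isoforms took opposite order in different cell lines, with both libraries of one isoform above both of the other in each of the cell lines named. These differences between cell lines were not tested, and each rests on 2 libraries per isoform. At ADM +3.0 kb HIF-1α minus HIF-2α was 45.03 percentile points in T47D and -10.1 in A549. At ANGPTL4 -1.9 kb it was 49.5 in HCT116 and 68.3 in T47D, and -53.3 in A549, where HIF-1α had 1 peak of low rank at the start of the gene and HIF-2α peaks lay upstream. At PDGFB -7.4 kb it was 34.0 in PC3 and -51.6 in A549, where HIF-1α had no peak. A549 was the cell line with the negative value at all 3 sites, and its HIF-1α lists (382 and 629 peaks) were shorter than its HIF-2α lists (1382 and 1056 peaks), whose part in this was not tested.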

How the results depend on the processing

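Over all sites, the 155 calls by the exact permutation test (471 at an unadjusted p under 0.05 of 1421) depended on the settings, and the cause was not tested. The calls fell to 0 when presence replaced the percentile (321 unadjusted), with sites in at least 2 libraries or no filter (471 each, of 4722 and 11664 sites), and without HCT116, PC3 or T47D (181, 189 and 261 unadjusted). Without A549 there were 226 calls (388 unadjusted), with the same 216 relabellings. They rose to 691 on the log10 score (893 unadjusted), where 4 sites near the 8 genes were called in place of 0, 3 of them with peaks of 1 isoform alone. In that setting a missing peak took the lowest score of its own library, which ranged from 50 to 50.15. Libraries without a peak were then no longer tied, so that a smaller p became possible at sites with few peaks. The part of these fill values in the calls was not tested. With the 275 best peaks of each list there were 125 calls (171 unadjusted, of 352 sites). Leaving out 1 library gave 94 to 295 calls over all sites and 0 to 2 near the 8 genes. The fits beyond 1.5 times the 155 calls were those without A549 HIF-1α replicate 2 (295) or replicate 3 (94), PC3 HIF-1α replicate 1 (263) and T47D HIF-1α replicate 1 (265) or replicate 2 (266). Keeping replicate numbers as pairs gave 0 calls (297 unadjusted, 256 relabellings). The labels give no shared origin for equal numbers, and the correlation of same-numbered deviations between isoforms was 0.0226 to 0.0796 in the 4 cell lines, so that this replicate block is not used above.

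Near the 8 genes, the combinations of gene and cell line with a site moved most with the number of peaks kept. With the 275 best peaks per list, HIF-1α had 0 promoter and 4 distal combinations (6 and 11 as reported) and HIF-2α 0 and 7 (1 and 9 as reported). With peaks of either replicate the counts were 13 and 18 for HIF-1α and 5 and 16 for HIF-2α. Without HCT116, HIF-1α had 3 promoter and 6 distal combinations, and HIF-2α 7 distal ones. With 1 start site per gene, HIF-1α had 3 promoter combinations. Within 50 kb HIF-1α had 7 distal combinations against 8 of HIF-2α, and 6 against 8 where the gene was the nearest one, so that in these 4 settings the order of the isoforms turned. Those of HIF-2α were 5 without A549. The single HIF-2α promoter combination went to 0 with the stricter score, a reciprocal overlap of 50%, or without HCT116 or PC3, to 3 with a promoter limit of 2500 bp and to 2 where the site had to span a start. Leaving out 1 library gave 6 to 8 promoter and 11 to 14 distal combinations for HIF-1α, and 0 to 2 and 9 to 12 for HIF-2α. The order of the distal counts also turned without HCT116 HIF-2α replicate 2. The distal counts of the isoforms were equal without PC3 HIF-2α replicate 1 and without T47D HIF-2α replicate 1.

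Of the 9 tested sites, the 4 with peaks of 1 isoform alone could not turn. Among the other 5, EDN1 +23.8 kb and PDGFB +2.0 kb kept their direction in the 25 and 27 of 28 settings in which they could be tested. PDGFB +2.0 kb, however, fell to 0.896 percentile points without HCT116 and to 4.16 without HCT116 HIF-2α replicate 3, beside 14.1 as reported. ADM +3.0 kb turned to -10.1 percentile points with lists of equal length and to -3.05 without T47D. ANGPTL4 -1.9 kb turned to -4.27 without PC3. PDGFB -7.4 kb turned to 5.80 with the stricter score, 11.3 without A549 and 0.0276 on the log10 score, and ranged from -11.6 to 2.83 with 1 library left out.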
